A study of Mus musculus with 6 samples.

Results

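Krüppel-like factors (KLFs) are transcription factors that bind DNA through C-terminal zinc fingers, and 10 genes of the family were examined in mouse hematopoietic stem cells (HSCs) with and without Emp1. The 10 genes, Klf2, Klf3, Klf4, Klf6, Klf7, Klf9, Klf10, Klf11, Klf12 and Klf13, were found by symbol among the 55401 gene identifiers of the RNA-seq matrix, which holds 17 Klf genes in all. The members were chosen by the FPKM values of Klf13, which rose in Emp1-deficient HSCs. That same comparison of genotypes is therefore given here as a description, without p-values for the members, and no support is drawn from it. There were 3 libraries from Emp1fl/fl,Tie2-Cre mice (called Emp1-deficient below), and they were set against 3 from Emp1fl/fl mice. Both genotypes carry floxed Emp1 alleles, and only the first carries Cre driven by the Tie2 promoter, which is active in endothelial and blood-forming cells. Effects of Emp1 loss and of Cre itself cannot be told apart, nor can its loss in HSCs and in other Tie2-expressing cells. The cells were sorted from bone marrow as CD48-CD150+LSK, and the labels used here give no age and do not say whether the replicates were separate mice, so any p-value measures only the spread between these libraries.

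KLFs recognise GC-rich and CACCC-type DNA, the elements that the related SP factors also bind, and family members differ mainly in the N-terminal part that recruits partners. The CtBP subgroup (Klf3, Klf8, Klf12) binds the corepressor of that name, the activator subgroup (Klf1, Klf2, Klf4, Klf5, Klf6, Klf7) mostly acts through acetyltransferases, and the SIN3A subgroup (Klf9, Klf10, Klf11, Klf13, Klf14, Klf16) binds a corepressor complex built on SIN3A. In blood, Klf1 drives red cell genes, Klf2 holds T cells in quiescence and Klf4 marks monocyte differentiation. Several of the genes are also rapidly inducible by growth factors, shear or stress.

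Levels were read as FPKM, the authors' fragment values scaled by transcript length and library total, so they can be set side by side between genes. Depth in reads is unknown. Relative depth, read from low single-exon genes, was 0.776, 0.956 and 1.88 in Emp1-deficient replicates 1, 2 and 3, against 1 (set), 0.776 and 1.02 in Emp1fl/fl replicates 1, 2 and 3. Emp1 itself stood at 0.58, 0.70 and 0.27 FPKM in Emp1-deficient libraries, against 3.25, 2.64 and 4.32 FPKM in Emp1fl/fl libraries, the direction that the labels give. Even so, Emp1 did not pass the limma threshold described below (log2 difference -1.53, limma adjusted p 0.0577). The HSC markers Kit (216.59 to 337.25 FPKM in Emp1-deficient and 267.18 to 314.91 FPKM in Emp1fl/fl libraries), Slamf1, Mecom and Procr were present in every library, although Cd48, which the sort selects against, was listed at 22.89 to 47.25 FPKM in Emp1-deficient and 26.05 to 49.62 FPKM in Emp1fl/fl libraries. Of the 10 HSC marker genes tested, 0 passed the limma threshold described below. At an unadjusted p under 0.05 the split was 1 higher and 2 lower (6.50% and 9.72% of all genes tested). Since these are bulk samples, fewer cells of a type and less RNA per cell cannot be told apart.

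The 10 genes spanned levels from Klf12, with a mean of 1.82 FPKM over the 6 libraries, to Klf6, with 258.5 FPKM. The order of the means was Klf6, Klf10 (177.4), Klf13 (170.7), Klf11 (57.4), Klf9 (15.0), Klf3 (10.2), Klf4 (8.96), Klf7 (7.69), Klf2 (6.97) and Klf12, all in FPKM. Klf6 lay above 97.6% of the 15723 genes tested and Klf12 above 17.1%. Klf13 exceeded Klf11, Klf11 exceeded Klf9, and Klf2 exceeded Klf12 in 6 of 6 libraries. The other neighbours changed places: Klf6 exceeded Klf10 in 5 libraries, Klf10 exceeded Klf13 in 5, Klf9 exceeded Klf3 in 5, Klf3 exceeded Klf4 in 4, Klf4 exceeded Klf7 in 5 and Klf7 exceeded Klf2 in 3. Thus the 4 most abundant members were 1 activator-type gene, Klf6, and 3 genes of the SIN3A-binding subgroup.

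**Figure D1:**
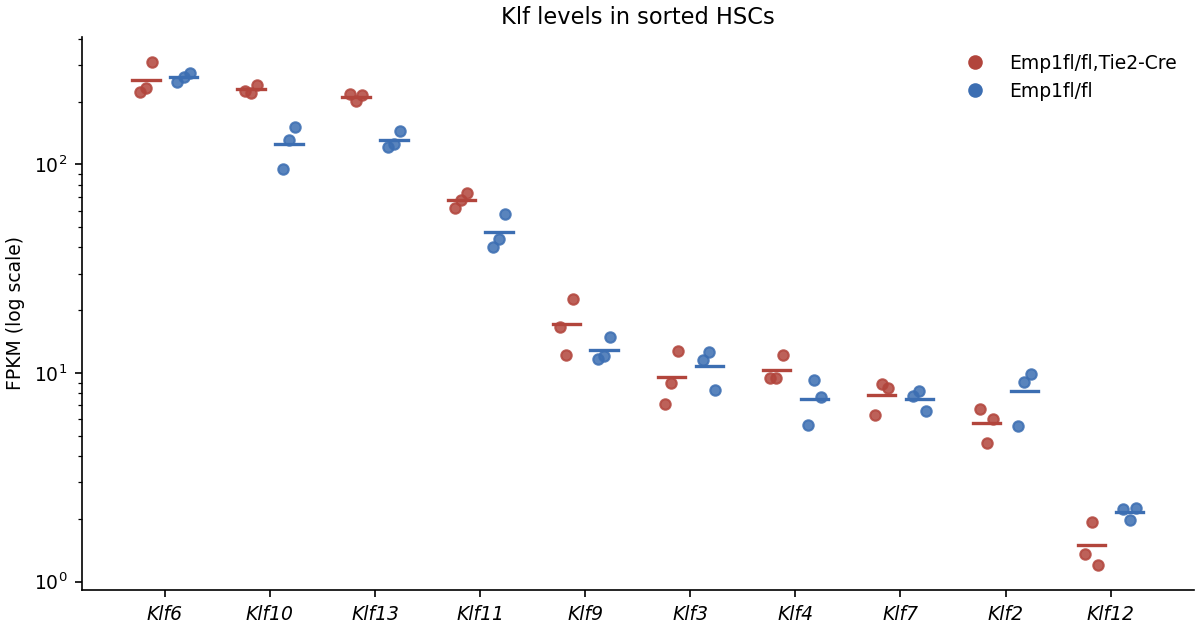
FPKM of the 10 Klf genes on a log axis, ordered by their mean over 6 libraries; points are libraries and lines are means, with Emp1fl/fl,Tie2-Cre (red) left of Emp1fl/fl (blue), 3 libraries each. Klf10, Klf11 and Klf13 show no overlap between genotypes, with all Emp1-deficient libraries above all Emp1fl/fl libraries, whereas the points of Klf6, the most abundant member, are mixed.

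The SIN3A-binding subgroup holds Klf13, the gene that led to the family. Klf13 (ENSMUSG00000052040, mm10 chr7:63886351-63938915, minus strand), which in T cells activates the chemokine gene Ccl5, stood at 217.18, 200.5 and 215.17 FPKM in Emp1-deficient libraries, against 121.29, 125.11 and 144.84 FPKM in Emp1fl/fl libraries. The lowest Emp1-deficient library was thus well above the highest Emp1fl/fl library. The mean was 211 ± 9.11 FPKM in Emp1-deficient and 130 ± 12.6 FPKM in Emp1fl/fl libraries (SD, n = 3 each), a ratio of 1.62, and the fitted log2(FPKM + 1) difference was 0.69 (SE 0.10). Klf13 was the 1 member of the 10 past the threshold of limma (Benjamini-Hochberg adjusted p under 0.05 over 15723 genes), which 0.267% of all genes tested passed (0.159% higher and 0.108% lower). No member passed as lower. On an unadjusted p under 0.05 the counts were 3 higher and 0 lower, where 6.50% of all genes tested were higher and 9.72% lower. Nothing is read from these counts, since Klf13 chose the family. The call rests on each library: with any 1 of the 6 left out, 0 of the 10 members passed by limma, while 3 or 4 had an unadjusted p under 0.05.

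Klf10 (ENSMUSG00000037465, chr15:38291463-38300706), an early gene induced by TGF-β, was listed at 225.53, 220.6 and 241.62 FPKM in Emp1-deficient libraries, against 94.71, 131.34 and 150.57 FPKM in Emp1fl/fl libraries. Again no library of one genotype reached the other, and the Emp1fl/fl values spread more widely than the Emp1-deficient ones. The mean was 229 ± 11.0 FPKM in Emp1-deficient and 125.5 ± 28.4 FPKM in Emp1fl/fl libraries (SD, n = 3 each), and the log2 difference, 0.89 (SE 0.16), was above that of Klf13 although Klf10 did not pass the threshold. Among protein-coding genes alone, which number 12134, Klf10 passed as well as Klf13. Its standard deviation in Emp1fl/fl libraries was 22.6% of the mean, against 9.69% for Klf13.

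Klf11 (ENSMUSG00000020653, chr12:24651274-24662789), a close relative of Klf10 known as a metabolic regulator in pancreatic beta cells, stood at 61.67, 67.52 and 72.87 FPKM in Emp1-deficient libraries, against 40.09, 44.15 and 58.06 FPKM in Emp1fl/fl libraries. The genotypes did not overlap, but Emp1fl/fl replicate 3 came close to the lowest Emp1-deficient library. The log2 difference was 0.51 (SE 0.14) and did not pass. Klf9 (ENSMUSG00000033863, chr19:23141226-23168134), a gene induced by glucocorticoid and thyroid hormones, was listed at 16.64, 12.15 and 22.57 FPKM in Emp1-deficient libraries, against 11.65, 12.06 and 14.84 FPKM in Emp1fl/fl libraries. Here Emp1-deficient replicate 2 lay among the Emp1fl/fl libraries, and the log2 difference of 0.35 (SE 0.21) was 0.14 without Emp1-deficient replicate 3.

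All 4 members of this subgroup had a positive log2 difference, with a median of 0.60, and of 0.51 for the 3 without Klf13, the gene that chose the family. The median over all genes tested was -0.046, with 43.1% of them above 0, and nothing is read from this contrast. Of the other genes of the subgroup, Klf16 stood at 21.67, 15.95 and 17.59 FPKM in Emp1-deficient libraries, against 13.18, 12.42 and 16.54 FPKM in Emp1fl/fl libraries, so that 1 library of each genotype crossed. Its log2 difference was 0.37 (SE 0.16). Klf14 was under 1 FPKM in every library and was not tested. Emp1-deficient replicate 3, the deepest library, held the highest values of Klf9, Klf10 and Klf11 but not of Klf13. Outside this subgroup, that library also held the highest values of Klf3, Klf4 and Klf6.

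**Figure D2:**
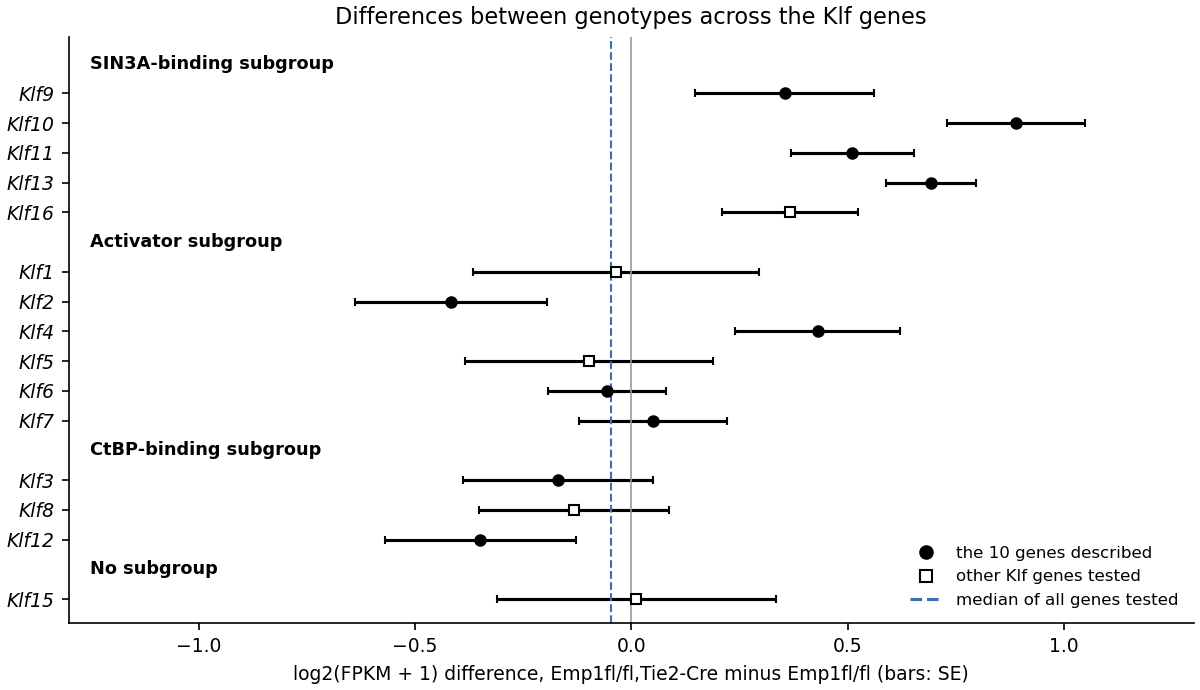
Fitted log2(FPKM + 1) differences, Emp1fl/fl,Tie2-Cre minus Emp1fl/fl, with standard errors for 15 tested Klf genes by cofactor subgroup (3 libraries per genotype; filled circles, the 10 genes described; open squares, other Klf genes; dashed line, median of all genes tested, -0.046). The 5 tested SIN3A-binding genes lie to the right of 0, from 0.35 to 0.89, and the 3 CtBP-binding genes to the left.

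Of the 4 activator-type members, Klf6 (ENSMUSG00000000078, chr13:5861482-5870394), an inducible factor needed for early blood formation in mouse embryos, was the most abundant Klf gene of the matrix in 5 of 6 libraries. It was listed at 222.3, 231.79 and 310.43 FPKM in Emp1-deficient libraries, against 248.5, 264.11 and 274.02 FPKM in Emp1fl/fl libraries. Emp1-deficient libraries lay on both sides of the Emp1fl/fl range, and the log2 difference was -0.056 (SE 0.14), with the sign turning when Emp1-deficient replicate 1 or 2 was left out. Klf7 (ENSMUSG00000025959, chr1:64029447-64122282), a factor first described as ubiquitous, was likewise mixed, with 6.26, 8.89 and 8.44 FPKM in Emp1-deficient libraries, against 7.78, 8.20 and 6.55 FPKM in Emp1fl/fl libraries (log2 difference 0.051, SE 0.17, and below 0 without Emp1-deficient replicate 2 or 3 or Emp1fl/fl replicate 3). The opposite-strand gene Gm26649 overlaps its exons, as Gm20033 does those of Klf3, and the sources used here do not say that counting used strand, so their reads cannot be told apart.

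Klf2 and Klf4, related factors that fluid shear induces in endothelium, leaned opposite ways. Klf4 (ENSMUSG00000003032, chr4:55527143-55532466) stood at 9.48, 9.43 and 12.26 FPKM in Emp1-deficient libraries, against 5.65, 9.22 and 7.71 FPKM in Emp1fl/fl libraries. The genotypes did not overlap, yet Emp1fl/fl replicate 2 nearly reached the Emp1-deficient libraries, and the log2 difference of 0.43 (SE 0.19) did not pass. Klf2 (ENSMUSG00000055148, chr8:72319033-72321656) was listed at 6.69, 4.61 and 6.02 FPKM in Emp1-deficient libraries, against 5.59, 9.06 and 9.85 FPKM in Emp1fl/fl libraries. The low Emp1fl/fl replicate 1 lay within the Emp1-deficient range, and the log2 difference was -0.42 (SE 0.22). The ratio of Klf4 to Klf2 FPKM was 1.42, 2.05 and 2.04 in Emp1-deficient libraries, against 1.01, 1.02 and 0.783 in Emp1fl/fl libraries, without overlap. This ratio joins genes already seen to lean opposite ways, so nothing is read from its separation. Klf5, the other low gene of the subgroup, was listed at 0.68 to 1.28 FPKM in Emp1-deficient and 0.61 to 1.5 FPKM in Emp1fl/fl libraries. Klf15 and Klf17, which belong to no subgroup here, averaged under 1 FPKM.

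The CtBP-binding members were lower in mean. Klf12 (ENSMUSG00000072294, chr14:99870632-100284679), a repressor of the AP-2α gene, was the least abundant member, with 1.35, 1.93 and 1.20 FPKM in Emp1-deficient libraries, against 2.23, 1.98 and 2.25 FPKM in Emp1fl/fl libraries. Emp1-deficient replicate 2 lay just under the lowest Emp1fl/fl library, and the log2 difference of -0.35 (SE 0.22) depended on the pseudocount, being -0.52 at a pseudocount of 0.1 and -0.14 at 5. Klf3 (ENSMUSG00000029178, chr5:64803388-64832901), a repressor in red cell and B cell development, was mixed, with 7.14, 8.93 and 12.75 FPKM in Emp1-deficient libraries, against 11.49, 12.57 and 8.33 FPKM in Emp1fl/fl libraries (log2 difference -0.17, SE 0.22, and 0.0043 without Emp1-deficient replicate 1). Klf8, the other gene of the subgroup, averaged 3.89 ± 0.339 FPKM in Emp1-deficient and 4.48 ± 1.41 FPKM in Emp1fl/fl libraries (SD, n = 3 each), with overlap.

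All 10 genes passed the filter on low values, each with at least 1 FPKM in every library. In 5 of the 10 the genotypes did not overlap, 4 higher and 1 lower in Emp1-deficient libraries, where 22.1% of all genes tested did not overlap (8.91% higher and 13.2% lower), and nothing is read from this count either. The median log2 difference of the 10 was 0.20, 0.051 without Klf13, and 0.072 for the 10 without Emp1-deficient replicate 3.

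**Figure D3:**
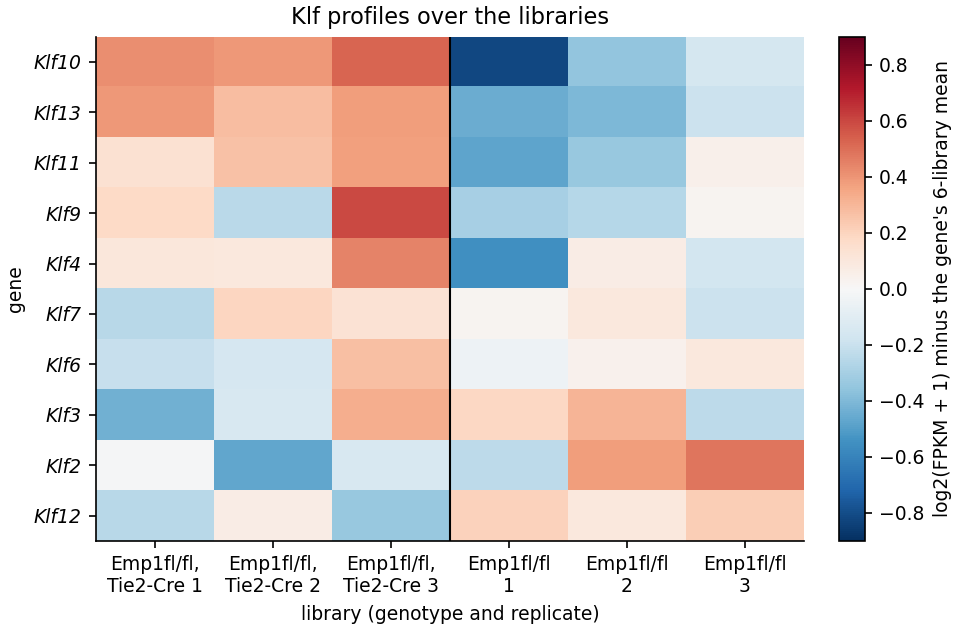
Each row is a Klf gene and each column a library, coloured by log2(FPKM + 1) minus the gene's mean over the 6 libraries, with the 3 Emp1fl/fl,Tie2-Cre libraries left of the line and the 3 Emp1fl/fl libraries right of it. Klf10 and Klf13 are above their mean in the 3 Emp1-deficient libraries and below it in the 3 Emp1fl/fl libraries, while Klf9 is strongest in Emp1-deficient replicate 3 alone.

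Summed over the 17 Klf genes, FPKM reached 827, 801.5 and 949 in Emp1-deficient libraries, against 595.5, 659 and 715 in Emp1fl/fl libraries. Klf6 made up 26.9%, 28.9% and 32.7% of this sum in Emp1-deficient libraries, against 41.7%, 40.1% and 38.3% in Emp1fl/fl libraries, although its own FPKM overlapped between genotypes. The 4 SIN3A-binding members made up 63.0%, 62.5% and 58.2% in Emp1-deficient libraries, against 45.0%, 47.4% and 51.5% in Emp1fl/fl libraries. In both measures the libraries of the genotypes stayed apart. Klf13, whose rise chose the family, enters both, so nothing is read from this separation. Klf13 reached 0.977, 0.865 and 0.693 of the Klf6 FPKM in Emp1-deficient libraries, against 0.488, 0.474 and 0.529 in Emp1fl/fl libraries. These ratios within a library do not depend on how its total was scaled, but they too contain Klf13 and nothing is read from them.

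**Figure D4:**
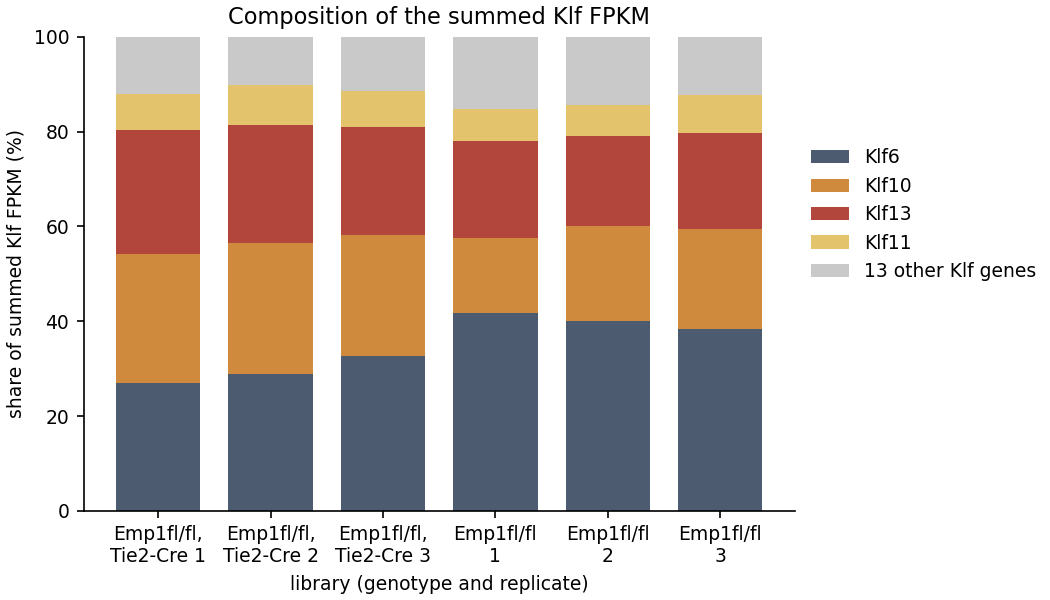
Stacked bars give the percentage of the FPKM summed over 17 Klf genes that belonged to Klf6, Klf10, Klf13, Klf11 and the 13 others, for each library (Emp1fl/fl,Tie2-Cre left, Emp1fl/fl right). Klf6 takes 26.9% to 32.7% in Emp1-deficient libraries and 38.3% to 41.7% in Emp1fl/fl libraries.

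Upstream sequence was GC-rich in most members. RefSeq promoters on GRCm38.p6, the assembly that mm10 denotes, matched 9 of the 10 genes, all but Klf10. The 250 bases before the start were searched on both strands for the GC box GGGCGG and for CACCC, the sequence types that the family itself binds. A GC box was found in 7 of the 9 and CACCC in 6 of the 9, against 32.7% and 52.0% of 32851 windows of the same length from all genes. Each of the 9 had at least 1 of them. The share of all windows with either motif was not counted, so nothing is read from that. The windows of Klf13, Klf11 and Klf9 had 71.6%, 76.8% and 59.6% G and C, that of Klf6 64.8% and that of Klf12 48.0%, against a median of 52.4% over all windows. All windows end at the RefSeq start. Those of Klf7 and Klf12 lie inside the longer GENCODE genes, that of Klf12 at chr14:100149797-100150046, and those of Klf2, Klf3, Klf6 and Klf11 run past the GENCODE start. These motifs are frequent in GC-rich sequence, and a match is a description of letters only.

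The sequences of Klf13, Klf11 and Klf9 are shown as those of the matched SIN3A-binding members, and that of Klf6 because it is the most abundant member whose genotypes overlapped. They run 5′ to 3′ on the strand of the gene, end before the earlier of the RefSeq and GENCODE starts, and have GC boxes and CACCC, on either strand, in capitals. Klf13 lies at chr7:63938916-63939165 (minus strand), Klf11 at chr12:24651121-24651273, Klf9 at chr19:23140976-23141225 and Klf6 at chr13:5861239-5861481 (plus strand).
Klf13: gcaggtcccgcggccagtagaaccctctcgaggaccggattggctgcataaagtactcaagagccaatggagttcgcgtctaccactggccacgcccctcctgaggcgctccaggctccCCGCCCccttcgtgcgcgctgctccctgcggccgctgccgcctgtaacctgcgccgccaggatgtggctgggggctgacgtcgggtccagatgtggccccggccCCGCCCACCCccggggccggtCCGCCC
Klf11: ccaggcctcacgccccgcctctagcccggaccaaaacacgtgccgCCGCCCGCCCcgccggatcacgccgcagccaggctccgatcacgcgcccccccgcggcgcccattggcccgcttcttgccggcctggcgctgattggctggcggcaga
Klf9: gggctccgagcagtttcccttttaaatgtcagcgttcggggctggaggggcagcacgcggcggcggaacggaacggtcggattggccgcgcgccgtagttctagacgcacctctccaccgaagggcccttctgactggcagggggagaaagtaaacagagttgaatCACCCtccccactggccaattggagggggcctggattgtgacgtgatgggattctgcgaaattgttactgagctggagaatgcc
Klf6: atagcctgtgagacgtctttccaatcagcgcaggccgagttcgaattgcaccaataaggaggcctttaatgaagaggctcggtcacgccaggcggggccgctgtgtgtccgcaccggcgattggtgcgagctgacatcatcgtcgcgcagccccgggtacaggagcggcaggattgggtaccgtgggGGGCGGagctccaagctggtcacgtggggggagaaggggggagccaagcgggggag
Klf13 had 3 GC boxes and 1 CACCC, and the GC box at positions -27 to -22 from the start shares 1 base with the CACCC that begins at -22. Klf11 had 4 GC boxes in its full window, of which a pair, overlapping at -205 to -196, lies in the stretch shown. Klf9 had no GC box and a single CACCC at -84, and Klf6 a single GC box at -63. Klf3, whose log2 difference was -0.17, had the most boxes of the 9, with 6 GC boxes and 5 CACCC. Those from -120 onward lie past its GENCODE start.

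**Figure D5:**
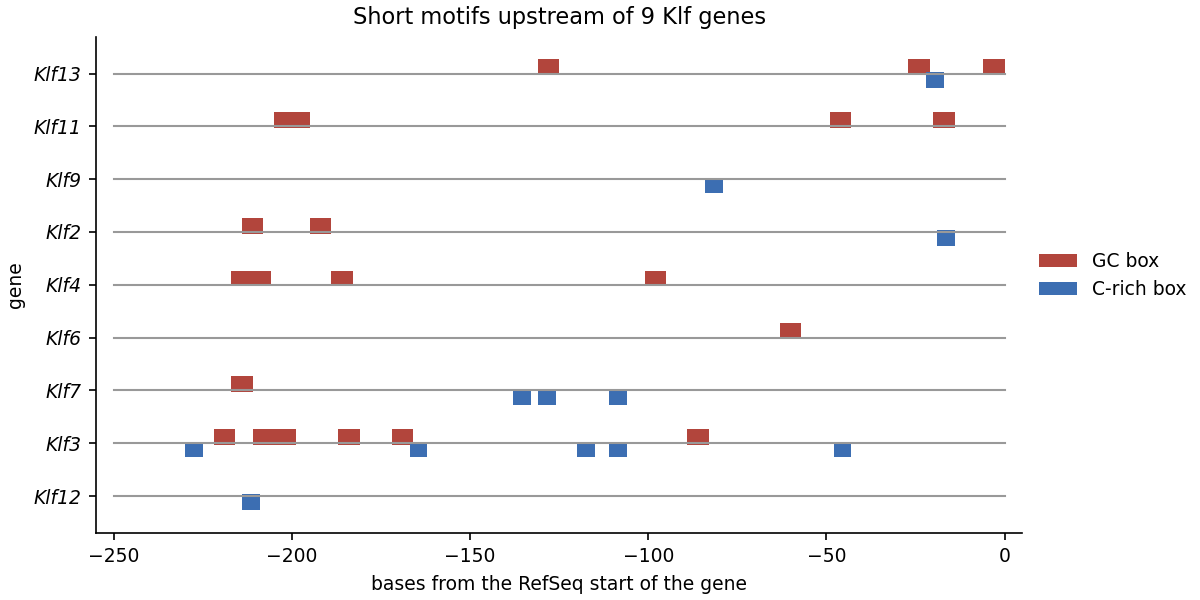
Positions of GC boxes (red, above the line) and CACCC boxes (blue, labelled C-rich box, below the line), on either strand, in the 250 bases before the RefSeq start of 9 Klf genes; the horizontal axis is in bases from the start. Klf3 carries 11 boxes in all, Klf13 4 and Klf9 1.

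Partners and regulators of KLFs came next. Of 13 corepressor genes around CtBP, SIN3 and NCOR, 0 passed by limma in either direction. At an unadjusted p under 0.05, 1 was lower and 0 were higher (9.72% and 6.50% of all genes tested). The median log2 difference was -0.0038. Rbbp7, the most abundant of them, averaged 204.5 ± 6.76 FPKM in Emp1-deficient and 194 ± 19.0 FPKM in Emp1fl/fl libraries, and Sin3b, a scaffold of the SIN3 complex, 89.9 ± 8.31 FPKM in Emp1-deficient and 94.7 ± 1.99 FPKM in Emp1fl/fl libraries (SD, n = 3 each). Hdac2, the 1 lower gene, and Sin3a were named after their values were seen. Hdac2 was listed at 12.35, 12.82 and 13.95 FPKM in Emp1-deficient libraries, against 16.83, 15.07 and 17.66 FPKM in Emp1fl/fl libraries, without overlap. Sin3a was listed at 17.41, 25.49 and 20.51 FPKM in Emp1-deficient libraries, against 28.47, 30.14 and 23.03 FPKM in Emp1fl/fl libraries, with overlap. Among 4 acetyltransferase genes 0 passed by limma, with 0 higher and 1 lower when p was unadjusted and under 0.05 (6.50% and 9.72% of all genes tested). Kat2a was listed at 36.48, 38.02 and 37.82 FPKM in Emp1-deficient libraries, against 46.41, 47.46 and 49.55 FPKM in Emp1fl/fl libraries, without overlap. Of the 4 ubiquitin ligase genes, which include Wwp1 and Fbxw7 that target KLF2 and KLF5, 0 passed in either direction by limma and 0 had an unadjusted p under 0.05.

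Among 10 genes of the ERK5 and MEF2 route that induces Klf2 and Klf4 in endothelium, with its CCM-complex inhibitors, 0 passed by limma. At an unadjusted p under 0.05, 1 was higher and 0 were lower (6.50% and 9.72% of all genes tested). The 1 was Pdcd10, a CCM-complex gene, with 47.17, 51.21 and 52.42 FPKM in Emp1-deficient libraries, against 38.35, 37.10 and 36.59 FPKM in Emp1fl/fl libraries. Mef2c, the most abundant of this list, averaged 163 ± 6.70 FPKM in Emp1-deficient and 176 ± 14.5 FPKM in Emp1fl/fl libraries (SD, n = 3 each). The SP factors Sp1, Sp2, Sp3 and Sp4, which bind the same DNA elements, were present at means of 9.16, 10.5, 34.2 and 9.94 FPKM over the 6 libraries. None of these 4 passed by limma or had an unadjusted p under 0.05, and the genotypes overlapped in each. The 5 other Sp genes stayed under 1 FPKM in every library.

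Of 18 genes described as KLF targets in other cells, 16 were tested, and 1 rose and 0 fell, where 0.159% of all genes tested rose. At an unadjusted p under 0.05, 5 were higher and 1 lower (6.50% and 9.72% of all genes tested), and the median log2 difference was 0.21. The list was chosen with earlier results of these data known, so nothing is read from these counts. The gene that rose was Cdkn1a, the p21 cell cycle inhibitor that KLF4 and KLF6 activate. It stood at 1305.19, 1111.45 and 1292.85 FPKM in Emp1-deficient libraries, against 657.74, 713.93 and 788.86 FPKM in Emp1fl/fl libraries. Its log2 difference was 0.78 (SE 0.12), with an adjusted p of 0.0488 by limma, just inside the threshold. Eng, the TGF-β coreceptor endoglin, was listed at 89.81, 85.11 and 84.63 FPKM in Emp1-deficient libraries, against 118.12, 118.55 and 121.71 FPKM in Emp1fl/fl libraries. It did not pass, but no library crossed. S1pr1 and Thbd, targets of KLF2 in T cells and endothelium, were likewise without overlap, and were named after their values were seen. S1pr1 stood at 54.66, 55.3 and 70.5 FPKM in Emp1-deficient libraries, against 41.57, 39.22 and 42.52 FPKM in Emp1fl/fl libraries. Thbd stood at 16.18, 21.11 and 16.72 FPKM in Emp1-deficient libraries, against 10.37, 11.95 and 12.8 FPKM in Emp1fl/fl libraries. Ccl5, the target of KLF13 in T cells and chosen in the same way, overlapped, with 7.02, 18.71 and 6.97 FPKM in Emp1-deficient libraries, against 8.26, 10.67 and 6.11 FPKM in Emp1fl/fl libraries.

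The genes whose profile over the 6 libraries was most like that of Klf13 were sought among 9251 other tested protein-coding genes with a mean of at least 5 FPKM, by the root mean square distance of centred log2(FPKM + 1) values. The nearest was Cfap20, with 231.0, 200.27 and 219.16 FPKM in Emp1-deficient libraries, against 125.65, 135.39 and 147.07 FPKM in Emp1fl/fl libraries, at a distance of 0.040. Then came Smim3 (0.051), Cdkn1a (0.063), Rel (0.072) and Dnaaf2 (0.075). Of the members, Klf11 ranked 44 and Klf10 112 of 9251, Klf4 606 and Klf9 1065, whereas Klf2 ranked 8386 and Klf3 7816. The 6 points of each profile share their 2 genotypes, and no test is given for this likeness.

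Immediate early genes and mitochondrial transcripts were set beside the members. Immediate early genes, a class that cell handling can induce and to which several KLFs belong, were abundant in both genotypes. Of 22 tested, 0 passed by limma, 7 were higher and 1 was lower on an unadjusted p under 0.05 (6.50% and 9.72% of all genes tested), with a median log2 difference of 0.15 and summed FPKM of 10240 to 14500 in Emp1-deficient and 10590 to 11690 in Emp1fl/fl libraries. The summed FPKM overlapped, and nothing is read from these counts, since the list was chosen with earlier results known. Nr4a1 was higher without overlap, at 3333.08, 3960.21 and 3876.42 FPKM in Emp1-deficient libraries, against 2309.06, 2757.12 and 3086.11 FPKM in Emp1fl/fl libraries. Fos overlapped, at 1107 ± 165 FPKM in Emp1-deficient and 1140 ± 123 FPKM in Emp1fl/fl libraries (SD, n = 3 each). The 1 lower gene was Ier3, named after its values were seen. It did not overlap, at 256.56, 461.12 and 308.13 FPKM in Emp1-deficient libraries, against 518.87, 496.64 and 508.08 FPKM in Emp1fl/fl libraries. Mitochondrially encoded protein genes took 5.39%, 5.13% and 6.78% of FPKM in Emp1-deficient libraries, against 3.69%, 4.48% and 4.18% in Emp1fl/fl libraries, without overlap, as for Klf10, Klf11 and Klf13. The part of these signals in the Klf differences was not tested.

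Monocyte and macrophage markers, which accompany Klf4 in mature cells, were set beside it. Of 8 tested, 0 passed by limma, and 1 was higher and 3 were lower on an unadjusted p under 0.05 (6.50% and 9.72% of all genes tested). Their summed FPKM was 327 to 363 in Emp1-deficient and 344 to 384 in Emp1fl/fl libraries, most of it Lyz2. The 4 most abundant did not share a direction. Irf8 was lower, at 7.15, 5.94 and 5.66 FPKM in Emp1-deficient libraries, against 13.94, 18.17 and 11.08 FPKM in Emp1fl/fl libraries. Ms4a6c was higher, at 28.12, 24.46 and 27.16 FPKM in Emp1-deficient libraries, against 23.99, 19.96 and 19.87 FPKM in Emp1fl/fl libraries. Neither overlapped and neither passed, while Lyz2 and Cd68 overlapped. Csf1r and Adgre1, named after their values were seen, were the other lower genes. Csf1r stood at 5.15, 4.03 and 2.24 FPKM in Emp1-deficient libraries, against 7.72, 6.92 and 11.68 FPKM in Emp1fl/fl libraries, without overlap. Adgre1 overlapped, at 4.89, 1.66 and 2.2 FPKM in Emp1-deficient libraries, against 5.27, 4.57 and 8.04 FPKM in Emp1fl/fl libraries. Of the 8 log2 differences, 3 were above 0 and 5 below. The erythroid list, which holds Klf1, had 5 of 6 genes tested and summed to 72.6 to 160 FPKM in Emp1-deficient and 81.1 to 178 FPKM in Emp1fl/fl libraries. Klf1 itself was mixed, with 24.09, 12.60 and 22.71 FPKM in Emp1-deficient libraries, against 28.83, 19.05 and 13.54 FPKM in Emp1fl/fl libraries. T and NK cell markers, relevant because Klf2 and Klf13 are high in T cells, had 4 of 7 tested and summed to 266 to 376 FPKM in Emp1-deficient and 197 to 263 FPKM in Emp1fl/fl libraries, nearly all of it Nkg7, which was higher without overlap at 263 to 372 FPKM in Emp1-deficient and 187 to 258 FPKM in Emp1fl/fl libraries. Cd4, also without overlap, went the other way, at 1.16, 1.06 and 0.57 FPKM in Emp1-deficient libraries, against 3.36, 6.47 and 4.51 FPKM in Emp1fl/fl libraries. The T cell receptor complex gene Cd3e stood at 0.26 to 1.42 FPKM in Emp1-deficient and 0.38 to 1.32 FPKM in Emp1fl/fl libraries, and Cd3d and Cd8a under 0.25 FPKM in every library. Endothelial markers summed to 88.8 to 130 FPKM in Emp1-deficient and 109.5 to 126 FPKM in Emp1fl/fl libraries, of which Pecam1, Vwf, Tek and Emcn are also HSC genes, while Cdh5, which defines endothelium, was under 1 FPKM in every library. B and plasma cell markers summed to 354 to 1457 FPKM in Emp1-deficient and 147 to 620 FPKM in Emp1fl/fl libraries. Igkc, the most abundant of them, was listed at 301.67 to 1379.19 FPKM in Emp1-deficient and 58.85 to 541.43 FPKM in Emp1fl/fl libraries. Ighm went the other way in mean, at 7.96 FPKM in Emp1-deficient and 89.5 FPKM in Emp1fl/fl libraries, and both genes overlapped. Cd79b averaged 33.2 FPKM in Emp1-deficient and 34.3 FPKM in Emp1fl/fl libraries. For neutrophil markers the sums were 152 to 453 FPKM in Emp1-deficient and 164 to 392.5 FPKM in Emp1fl/fl libraries, and for megakaryocyte markers 525 to 869.6 FPKM in Emp1-deficient and 612 to 824 FPKM in Emp1fl/fl libraries. In the T and NK list 0 passed by limma with 1 higher and 1 lower on an unadjusted p under 0.05 (6.50% and 9.72% of all genes tested). In the erythroid, endothelial, B and plasma cell, neutrophil and megakaryocyte lists 0 passed and 0 had an unadjusted p under 0.05 by limma. The part of these cell types in the Klf values was not tested.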

How the data were processed

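RNA-seq values of 6 libraries from sorted mouse HSCs were used as the authors' deposited FPKM (2 decimals). The tools named in the submitters' processing notes are DESeq2, HTSeq, Cufflinks 2.1.1 and Bowtie 0.12.9, the build is mm10, and the step that made the FPKM is not stated. Per the labels' protocols, mRNA was reverse-transcribed and amplified by the Geo-seq method, and amplification can add scatter to low genes. Symbols came from GENCODE M21 (55141 of 55401 identifiers matched). Relative depth was read from the most frequent ratio of low FPKM values between Emp1fl/fl replicate 1 and each other library, over single-exon genes of 600 to 1500 bp under 0.5 FPKM. Absolute depth is unknown, so no counting intervals are given.

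A gene entered when 3 or more libraries reached 1 FPKM, which left 15723. Their log2(FPKM + 1) values were fitted by limma 3.58.1 under R 4.3.3 (trend and robust, genotype as the only term, two-sided), with Benjamini-Hochberg adjustment and a threshold of 0.05. A difference on this scale understates changes of low genes. The steps were tested on simulated data. Alternatives covered pseudocount, filter, scaling, weights, the replicate number and each library left out. Every Klf and expressed Sp gene was named, and of each other list the 4 highest genes and any past the threshold, of which part are printed. Hdac2, Sin3a, S1pr1, Thbd, Ccl5, Ier3, Slamf1, Mecom, Procr, Csf1r, Adgre1, Cd3d, Cd8a and Cdh5 fall outside this rule and were named after their values were seen. The members and lists were chosen with earlier results of these data known. The longest exact stretch shared by transcripts of 2 members had a median of 14 bases over 45 pairs (34 at most for Klf13, with Klf12).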

Additional observations from a re-analysis of the deposited data

How the results depend on the processing

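The log2 difference of Klf13 stayed between 0.61 (quantile normalization) and 0.77 (without Emp1fl/fl replicate 3) over 14 alternatives. The number of members past the threshold, 1 in the fit reported, was 0 with a pseudocount of 5, without a filter, after rescaling to TPM, after quantile normalization and with the replicate number as a block (unadjusted p under 0.05 in 3, 3, 3, 4 and 4 members). Among protein-coding genes alone, where fewer genes enter both the fit and the adjustment, it was 2. It was 0 to 0 with each library left out, where fewer samples enter. The cause of these changes was not tested. Leaving out a library moved the median of the 10 members between 0.072 and 0.27, and Klf13 between 0.64 and 0.77. Over all genes, 42 passed in the fit reported and 3 to 208 in the alternatives, 8 of them with the replicate block. Replicate numbers did not pair the libraries: the deviations of same-numbered libraries correlated across genes at -0.108, 0.086 and -0.052, and not every library was closest to its own number. Klf3, Klf6 and Klf7 changed sign in 1, 2 and 3 alternatives, each of which leaves out a library, and Klf12 moved by more than its spread with both other pseudocounts. A kept sign is no sign of stability where genotypes do not overlap. Since depth is unknown, the counting error behind low values such as those of Klf12 cannot be given.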
